A study of Rattus norvegicus with 8 samples.

Results

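The genes described here encode 10 neuronal RNA-binding proteins from 4 families: Elavl2, Elavl3 and Elavl4, Rbfox1, Rbfox2 and Rbfox3, Celf2 and Celf4, and Nova1 and Nova2. They were chosen by symbol, and every polyadenylation site that the authors' table assigned to these symbols was taken, 491 of 73922 sites and 10 of 12255 genes. Together they held 67658 reads, which was 0.507% of all reads. Of the 491 sites, 479 lay on the strand that carried most of the reads of their gene and 12 on the opposite strand.

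Hypothalamic RNA of 8 adult male rats of the Long-Evans strain was sequenced, with 1 library per rat and no genetic change named in the labels. The 4 control rats were kept on standard rodent chow and the 4 rats of the diet-induced obesity group ate a high fat diet freely, and brains were taken after 36 days. No body weights were used here, so the obesity group is defined by its label and diet. Each library was made by whole transcriptome termini site sequencing (WTTS-seq), which reads the 3′ ends of polyadenylated RNA and so counts ends of transcripts rather than fragments along them.

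RNA-binding proteins of these families recognise short motifs in transcripts and set how neuronal mRNAs are spliced, polyadenylated, kept stable and translated. The neuronal Elavl proteins, also called Hu proteins, bind U-rich and AU-rich stretches, often in 3′ untranslated regions, and Elavl3 and Elavl4 mark neurons as they leave the cell cycle. Rbfox proteins bind GCAUG and direct alternative splicing, and Rbfox3 is the antigen NeuN by which neuronal nuclei are commonly stained. Celf proteins bind GU-rich elements, and Nova proteins bind clusters of YCAY, where Y is a pyrimidine, and act on splicing of synaptic transcripts.

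Library totals ran from 1417531 to 1957726 reads. Sites without a read numbered 14788 in control library 1, 10659 in obesity library 1 and between 4062 and 6622 in each of the rest. Of the 9 listed neuronal markers 8 were in the table, and their summed level ran from 4281 to 5216 CPM (read counts scaled to library size) in control libraries and from 4121 to 5284 in obesity libraries. All 9 listed hypothalamic peptides were found, Avp (vasopressin) highest. Their sum ran from 1094 to 1522 CPM in control and from 848 to 1087 CPM in obesity libraries, and these ranges narrowly did not overlap. Avp made up most of this sum, at 814 to 1199 CPM in control and 608 to 825 CPM in obesity libraries, which overlapped. Growth hormone (Gh1), a hormone of the anterior pituitary, stood at 70.6 CPM in obesity library 2 and at 0 to 0.813 in the other libraries. Of 4 pituitary markers 2 were in the table, summing to 0 to 7.31 CPM in control and 0.751 to 117.7 CPM in obesity libraries. Of 3 markers of choroid plexus 1 was in the table, transthyretin (Ttr), at 98.0 CPM in obesity library 4 and 0 to 1.52 elsewhere. Their part in the results below was not tested, and values without obesity library 2 are given beside some of the results. In bulk tissue, fewer cells of a type and less RNA per cell cannot be told apart.

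The levels of the 10 genes spanned a wide range. Gene levels are reads of all sites on the main strand divided by the reads assigned to genes in that library, as CPM after TMM scaling. Each RNA was taken to give 1 end, so they are not divided by length. Whether sites far upstream are true ends was not checked. Rbfox1 stood highest in control libraries at 2050.1 ± 183 CPM (SD, n = 4), above Celf4 at 1222 ± 145 CPM, and these did not overlap. Elavl3 followed at 702 ± 61.3 CPM, Rbfox3 at 582 ± 311 CPM and Celf2 at 542 ± 63.1 CPM. The range of Rbfox3 covered those of Elavl3 and Celf2, so the order among these could not be set, although Elavl3 lay above Celf2 in all 4 control libraries. Elavl4 at 200.1 ± 40.8 CPM and Rbfox2 at 161 ± 34.6 CPM overlapped. So did Nova1 at 88.2 ± 16.9, Elavl2 at 87.2 ± 16.6 and Nova2 at 58.0 ± 8.32 CPM, the lowest, in that each overlapped its neighbour in the order. Every member was above at least 77.7% of the 12255 genes, and Rbfox1 was above 99.8% of them. The place of Rbfox1 rested on sites more than 5 kb upstream of its most 3′ site. Within 5 kb of that site it held 273 ± 43.5 CPM in control libraries. In the same stretch of their own genes Celf4 held 699 ± 30.7 and Elavl3 595 ± 41.1 CPM.

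**Figure D1:**
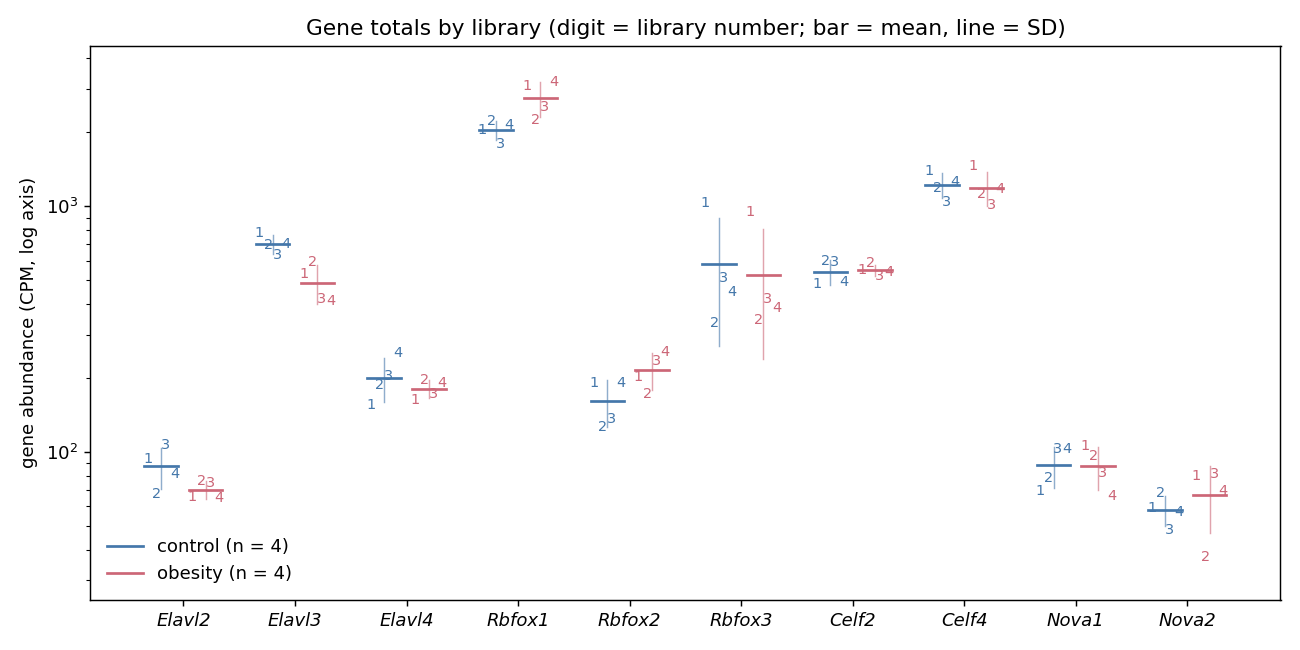
Level of each gene in each library, in CPM on a log axis, for control (blue) and obesity (red) libraries, with digits giving the library number, bars the mean and lines the SD (n = 4). Elavl3 lies lower in every obesity library, Rbfox1 lies higher in every one, and both libraries numbered 1 stand high for Rbfox3.

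Whether the output of these genes differed between the diets was asked with the quasi-likelihood test of edgeR on gene sums. At an adjusted p under 0.1 it called 0 of the 10 members and 0% of all genes, DESeq2 called 0 members and 4 genes in all, and edgeR with the library number as a block called 0 members and 34 genes in all. At an unadjusted p under 0.05, edgeR gave 2 members, Elavl3 and Rbfox1, where 5.12% of all genes passed. DESeq2 gave 2, beside 5.89% of all genes, and the blocked fit 3, beside 10.9% of all genes, the added one being Rbfox2. The CPM ranges of the groups did not overlap for 2 of the 10 members, again Elavl3 and Rbfox1, against 3.45% of all genes. Log2 fold changes, given throughout as obesity over control, were above 0 for 4 members and below 0 for 6, with a median of -0.03 beside 0.00 over all genes.

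Among the Elavl genes, Elavl3 had the lower values with the obesity diet. Its level was 781, 697, 631 and 700.0 CPM in control libraries 1 to 4 and 530.3, 596, 418 and 412 CPM in obesity libraries 1 to 4. Every obesity library was below every control library. The mean was 702 ± 61.3 CPM in control and 489 ± 89.4 CPM in obesity libraries (SD, n = 4). The log2 fold change was -0.52 (SE 0.19), with an unadjusted p of 0.0131 and an adjusted p of 0.921 by edgeR. With the library number as a block the adjusted p was 0.127, so the change did not pass the threshold there either. Without obesity library 2, the highest of its group, the log2 fold change was -0.63.

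Elavl4, a cytoplasmic regulator of mRNA stability and neurite growth, held 155, 188, 204 and 253 CPM in control and 163, 196, 173 and 191 CPM in obesity libraries. These ranges overlapped and the log2 fold change was -0.15 (SE 0.21). Elavl2, the other neuronal member, held 93.5, 67.6, 106 and 81.3 CPM in control and 65.3, 76.3, 74.4 and 64.7 CPM in obesity libraries. Its log2 fold change was -0.31 (SE 0.24), and 6 of its 7 sites had a negative fold change. The fold changes of all 3 Elavl genes were thus below 0, and none passed the adjusted threshold.

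Rbfox1, a splicing regulator of synaptic and ion channel transcripts, had the higher values in the obesity libraries. It stood at 2045, 2217, 1797 and 2142 CPM in control and at 3084, 2248, 2548 and 3201 CPM in obesity libraries. The lowest obesity library and the highest control library, both numbered 2, stood only narrowly apart, at 2248 and 2217 CPM. The log2 fold change was 0.43 (SE 0.18), with an unadjusted p of 0.0270 and an adjusted p of 0.921 by edgeR, and 0.180 with the block. It ran from 0.37 to 0.52 when each library was left out in turn. The 0.37 was without obesity library 4, with an unadjusted p of 0.0879 by edgeR.

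Rbfox2, which is expressed outside neurons as well, read 191, 126, 137 and 192 CPM in control and 202, 172, 234 and 255 CPM in obesity libraries. Each obesity library was above the control library of the same number, while the ranges of the groups overlapped. The log2 fold change was 0.42 (SE 0.22), and the unadjusted p was 0.0724 by edgeR and 0.0157 with the block, where the adjusted p was 0.323. Rbfox3 read 1036, 334, 509.6 and 449 CPM in control and 952, 343, 419 and 387 CPM in obesity libraries. Both libraries numbered 1 stood far above the rest of their groups, and these are the libraries with most sites at 0. The log2 fold change of Rbfox3 was -0.15 (SE 0.39), and it was 0.29 without control library 1 and 0.009 without obesity library 2.

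The Celf and Nova genes had gene totals that lay close together in the groups. Celf4, highest in this pair, read 1396, 1192, 1045 and 1253 CPM in control and 1456, 1125, 1016 and 1171 CPM in obesity libraries. Its log2 fold change was -0.04 (SE 0.18). Celf2 held 482, 599, 593 and 493 CPM in control and 551, 588, 521 and 538 CPM in obesity libraries, a log2 fold change of 0.02 (SE 0.18). Nova1 read 69.4, 78.3, 102 and 103 CPM in control and 105, 95.8, 82.0 and 66.0 CPM in obesity libraries, with a log2 fold change of -0.02 (SE 0.25). Nova2 read 58.8, 68.2, 48.0 and 57.0 CPM in control and 79.6, 37.3, 81.4 and 69.4 CPM in obesity libraries, and its log2 fold change was 0.21 (SE 0.28). Obesity library 2 was the lowest of all 8 for Nova2, and without it the log2 fold change was 0.40. When each library was left out in turn, that of Nova2 ran from 0.11 to 0.40.

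The genes differed in how their reads were spread over sites. Rbfox1 held 260 sites over 2111 kb, more than any other gene in the table, where the median gene had 2. Celf4 had 57 sites, Celf2 54, Elavl3 26, Rbfox3 25, Rbfox2 20, Elavl4 19, Nova1 15, Nova2 8 and Elavl2 7. In Rbfox1 the site with most reads held only 3.64% of the reads of the gene. In Rbfox3 a site held 77.3%, and in Elavl2 the most 3′ site held 51.0%. The site with most reads lay at or within 2.4 kb of the most 3′ site in Elavl2, Elavl3, Elavl4, Rbfox3, Celf2 and Celf4. It lay 5.36 kb upstream in Rbfox2, 34.1 kb upstream in Nova2, 47.1 kb upstream in Nova1 and 373 kb upstream in Rbfox1. Sites far upstream could not be classed as exonic or intronic, since no annotation of the build was used, and priming inside A-rich stretches of RNA, which can be read as an end, was not checked.

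Sites were tested singly with edgeR over all 73922. Site levels are CPM of the reads at all sites, so they are not on the scale of the gene levels. At an adjusted p under 0.1, 0 of the 491 member sites were called, beside 0.00135% of all sites, and DESeq2 called 1, the most 3′ site of Elavl3, of 10 called among the 26286 sites it adjusted (0.038%). At an unadjusted p under 0.05 there were 18 member sites (3.67%), 10 higher and 8 lower, where 3.14% of all sites passed. With the library number as a block these were 37 member sites (7.54%), 23 higher and 14 lower, beside 6.09% of all sites, and DESeq2 gave 27, beside 3.86%. The groups did not overlap at 15 member sites (3.05%), 7 higher and 8 lower, against 3.11% of all sites. The shares of 3.67% and 3.05% were thus close to the background. Fold changes were above 0 at 61.9% of the member sites and at 52.4% of all sites. Rbfox1 held 260 of the member sites, and in the other 9 genes 123 of 231 sites (53.2%) were above 0.

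Elavl3 lies on the minus strand of chromosome 8 (Rnor_6.0), and its sites ran from 23028240 to 23061125. Its most 3′ site, at 23028298, held 266, 201, 182 and 205 reads in control libraries 1 to 4 and 80, 103, 88 and 95 reads in obesity libraries 1 to 4. Every control library had more reads than any obesity library. In CPM the site stood at 134 ± 14.0 in control and 53.6 ± 12.5 in obesity libraries (SD, n = 4). The log2 fold change was -1.32 (SE 0.30), with an unadjusted p of 0.000646 and an adjusted p of 0.9999 by edgeR. The adjusted p was 0.0656 by DESeq2 and 0.117 by edgeR with the block, so the call at 0.1 depended on the tool.

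The site with most reads of Elavl3, at 23030250 and 1.95 kb upstream, followed the same direction. It held 297, 329, 268 and 301 reads in control and 185, 209, 169 and 123 reads in obesity libraries. These groups did not overlap either, and the log2 fold change was -0.90 (SE 0.30, unadjusted p 0.0105 by edgeR). Another site at 23028371, 73 bases upstream of the most 3′ one, stood at 27.3 ± 7.92 CPM in control and 12.8 ± 3.47 CPM in obesity libraries, again without overlap, with a log2 fold change of -1.10 (SE 0.42).

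The 3 sites from 1.37 to 1.82 kb upstream overlapped between the groups. The 4 sites within 1 kb of the most 3′ site summed to 173 ± 20.8 CPM in control and 76.9 ± 14.0 CPM in obesity libraries (SD, n = 4). The 9 sites from 1 to 5 kb upstream summed to 337 ± 21.2 and 249 ± 46.3 CPM, with 4 of the 9 above 0 in log2 fold change. The 12 sites farther upstream summed to 89.3 ± 23.2 and 76.2 ± 16.7 CPM. In log2 ratios of the means, these stretches gave -1.17, -0.43 and -0.23 from the 3′ end inwards. A site on the opposite strand, at 23044375, had 46 of its 49 reads in obesity library 1, so its log2 fold change of 4.08 rests on that library.

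**Figure D2:**
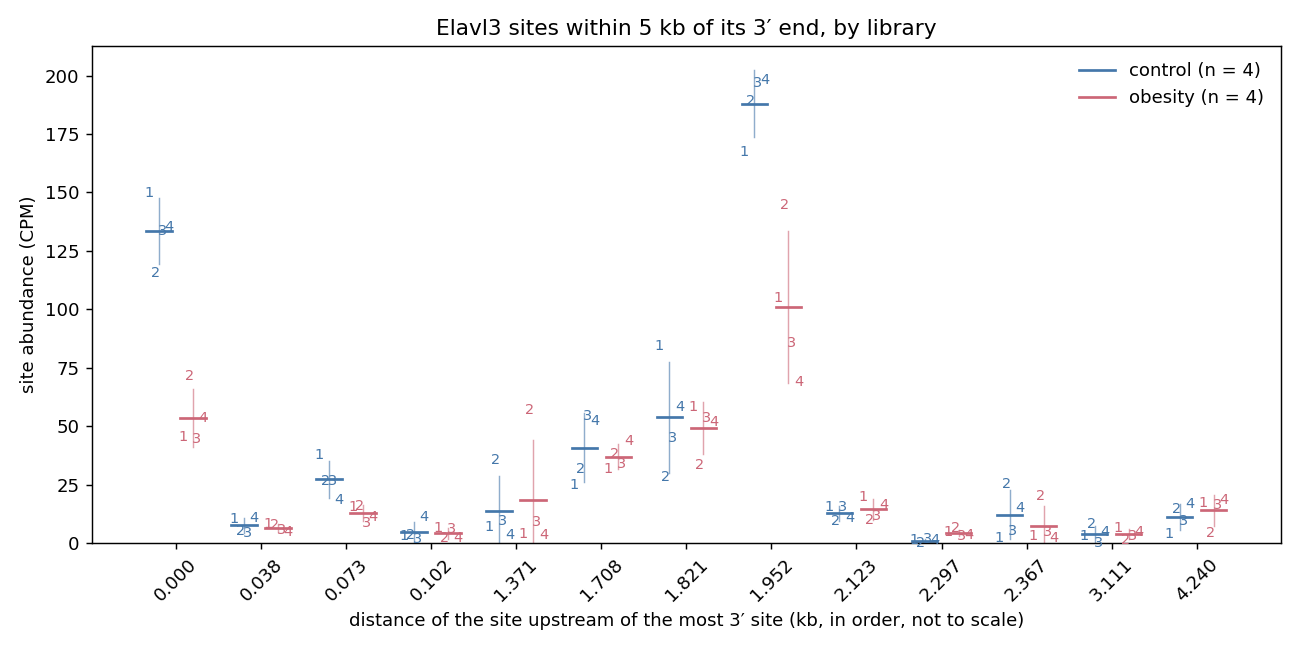
Level of the 13 Elavl3 sites within 5 kb of its most 3′ site, in CPM, ordered by distance upstream (kb, not to scale), for control (blue) and obesity (red) libraries; digits give the library, bars the mean and lines the SD (n = 4). The most 3′ site and the site 1.952 kb upstream are lower in all 4 obesity libraries than in any control library, and the sites from 1.371 to 1.821 kb overlap.

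Rbfox1 lies on the minus strand of chromosome 10, with sites from 8313712 to 10424599, and its higher total was made of many small sites. Of its 260 sites, 181 (69.6%) had a fold change above 0, with a median log2 fold change of 0.41 beside 0.05 over all sites of the table. Near the 3′ end the values lay the other way. The 7 sites within 5 kb summed to 228, 203, 299.5 and 209 CPM in control and to 135, 168, 234 and 135 CPM in obesity libraries. Between 1000 and 1500 kb upstream, 56 of 66 sites were above 0 in log2 fold change. These summed to 276, 467, 308 and 352 CPM in control and to 536, 498, 540.0 and 645 CPM in obesity libraries, and each obesity sum exceeded each control sum. Between 500 and 1000 kb the sums did not overlap either, at 432 to 557 CPM in control and 575 to 809 CPM in obesity libraries. The median log2 fold change of a site went from -0.59 within 5 kb to 0.33 between 5 and 500 kb, 0.36 between 500 and 1000 kb and 0.58 between 1000 and 1500 kb. It was 0.50 over the 20 sites beyond 1500 kb. Exact permutation of the summed CPM gave p of 0.114, 0.0571, 0.0286, 0.0286 and 0.429 for these stretches, from the 3′ end outwards. These p were not adjusted, and no share over all genes was computed for such stretches. The counts and medians of sites are descriptions, since the sites share libraries.

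Single Rbfox1 sites with an unadjusted p under 0.05 and a mean of at least 5 CPM fell on both sides of 0. At 8315619, 1.91 kb upstream of the most 3′ site, the level was 43.9, 57.0, 63.1 and 34.9 CPM in control and 16.4, 38.8, 11.6 and 6.73 CPM in obesity libraries. Only obesity library 2 reached into the control range, and the log2 fold change was -1.44 (SE 0.50), or -2.09 without that library. It ran from -2.09 to -1.16 when each library was left out in turn. The other 6 lay from 324 to 1428 kb upstream and all had higher values with the obesity diet, with log2 fold changes from 1.17 to 2.74. At 9426378 the level was 0.563, 2.88, 5.14 and 1.98 CPM in control and 6.23, 7.62, 39.0 and 17.9 CPM in obesity libraries, a log2 fold change of 2.74 (SE 0.75), or 2.0 without obesity library 3. At 9741412 it was 0.563, 15.5, 13.9 and 19.8 CPM in control and 32.3, 31.2, 32.4 and 61.7 CPM in obesity libraries, a log2 fold change of 1.66 (SE 0.64). The groups did not overlap at these last 2 sites, while the adjusted p of each was 0.9999. The site with most reads, at 8686631, averaged 83.7 ± 8.99 CPM in control and 64.3 ± 15.6 CPM in obesity libraries (SD, n = 4). Its log2 fold change was -0.38 (SE 0.31), and the most 3′ site at 8313713 had one of -0.61 (SE 0.49).

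**Figure D3:**
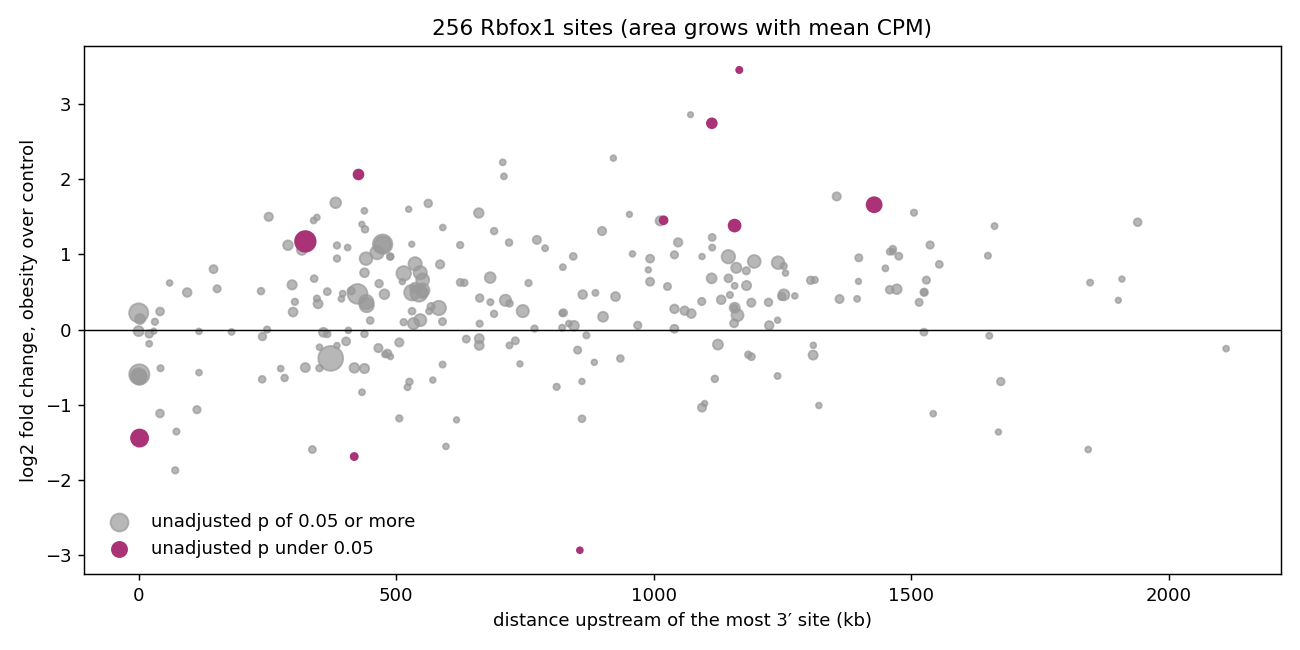
Log2 fold change (obesity over control) of the 256 Rbfox1 sites on the main strand against distance upstream of the most 3′ site (kb), with point area growing with mean CPM and sites at an unadjusted p under 0.05 in purple. Of the 66 sites between 1000 and 1500 kb upstream 56 lie above 0, while most of the 7 sites within 5 kb of the 3′ end lie below it.

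Gene totals above 0 were frequent among genes with many sites. The table held 117 genes with more than 50 sites, of which 103 had a log2 fold change above 0, with a median of 0.23. At an unadjusted p under 0.05, 16 of them were higher, and by total 12 had a log2 fold change above that of Rbfox1. The other members with more than 50 sites, Celf2 and Celf4, were within 0.04 of 0 in log2 fold change. Where along these genes the values lay was not compared.

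Celf4, on the minus strand of chromosome 18, had lower values at sites near its 3′ end. At 17689492, 0.682 kb upstream of the most 3′ site, the level was 56.3, 94.9, 92.5 and 61.3 CPM in control and 20.4, 69.3, 26.3 and 19.6 CPM in obesity libraries. Obesity library 2 lay within the control range and the other obesity libraries below it. The log2 fold change was -1.17 (SE 0.44), or -1.78 without that library. It ran from -1.78 to -0.98 when each library was left out in turn. The site with most reads, at 17690209, averaged 196 ± 35.7 CPM in control and 149.8 ± 25.9 CPM in obesity libraries (SD, n = 4), and its log2 fold change was -0.39 (SE 0.28). At the far end of the gene, 3 sites within 5 kb of the most upstream one held 16.6% of its reads. They summed to 287, 93.2, 69.0 and 183 CPM in control and to 333, 81.7, 109 and 152 CPM in obesity libraries, highest in both libraries numbered 1. A minor site among them, at 18079589, had a log2 fold change of -1.29 (SE 0.59) at 14.2 ± 8.38 and 5.78 ± 2.93 CPM.

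Celf2 lies on the plus strand of chromosome 17, and its sites had values on both sides of 0. At 75409081, 250.0 kb upstream of the most 3′ site, the level was 18.6, 24.2, 28.6 and 17.8 CPM in control and 47.6, 26.3, 65.3 and 42.0 CPM in obesity libraries. Obesity library 2 was again the one within the control range, and the log2 fold change was 1.02 (SE 0.39), or 1.21 without it. When each library was left out in turn, the value ran from 0.79 to 1.21. The site with most reads, at 75658612 and 0.509 kb from the 3′ end, stood at 60.8, 73.1, 106 and 75.8 CPM in control and at 17.0, 57.5, 71.4 and 32.5 CPM in obesity libraries, a log2 fold change of -0.82 (SE 0.42). Each obesity library was below the control library of its number. None of these Celf sites passed the adjusted threshold.

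The remaining members had their named sites at lower counts or with wide spread. Rbfox3, on chromosome 10, had 4754 of its reads at 107516184. These were 1256, 325, 507 and 465 reads in control and 1015, 272, 535 and 379 reads in obesity libraries, so this site carried the high values of both libraries numbered 1. Its most 3′ site, 57 bases farther at 107516127, had 33 reads in all, with 0 to 1.15 CPM in control and 0.693 to 7.85 CPM in obesity libraries. In Rbfox2, on chromosome 7, the site with most reads at 118160845 had a log2 fold change of 0.41 (SE 0.38). In Elavl2 and Elavl4, on chromosome 5, the sites with most reads at 109499412 and 130003773 had ones of -0.34 (SE 0.42) and -0.64 (SE 0.43). In Nova1 on chromosome 6 the value was -0.62 (SE 0.49) at 67010643, and in Nova2 on chromosome 1 it was 0.51 (SE 0.48) at 79832884.

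The share of a gene's reads at its most 3′ site does not depend on the output of the gene, and it was computed per library. It did not overlap between the groups for 1 of the 10 members, Elavl3, where 3.68% of 4624 genes did not overlap. In Elavl3 the share was 24.1%, 19.3%, 23.5% and 22.3% in control and 11.3%, 14.0%, 12.3% and 15.7% in obesity libraries. The mean thus went from 22.3% ± 2.14 to 13.3% ± 1.92 (SD), a difference of -8.94 percentage points with a 2-sided exact permutation p of 0.0286 (n = 4 per group). That is the smallest p that 70 arrangements of 4 and 4 can give, and the adjusted p was 0.777. With same-numbered libraries taken as pairs, the share was lower in 4 of 4 pairs, as it was in Rbfox1, where 17.3% of all genes had 1 sign in all pairs. For Elavl3 the exact sign-flip p was 0.125, the smallest that 16 arrangements can give, so that pairing cannot reach 0.05. The share was lower on average in 9 of the 10 members and in 64.7% of all genes. The median difference was -0.59 points in the members and -1.29 points over all genes. Of these 9, Elavl2, Celf2 and Nova2 differed by only -0.09, -0.07 and -0.08 points. When 1 library was left out, their ranges crossed 0, at -5.07 to 8.10, -0.97 to 1.00 and -2.81 to 1.44 points. With the most 3′ site that held at least 1% of the gene's reads, the difference turned from 0.98 to -6.20 points in Rbfox3 and from -0.50 to 1.29 points in Celf4, and 9 members were again lower. Over all genes the mean share ran from 25.3% to 27.9% in control libraries and from 22.9% to 26.1% in obesity libraries, highest of these in library 2. The count was 2 without obesity library 2, where 10.1% of all genes did not overlap, and without control library 2, where 6.86% did not. The added member was Rbfox3, whose share went the other way from that of Elavl3. With all libraries kept, the Rbfox3 share averaged 0.10% in control and 1.08% in obesity libraries, at a site with few reads.

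A most 3′ site with few reads says little, so the share within 5 kb of it was added after the table was seen. Of the 10 members only Rbfox1 did not overlap between the groups, beside 3.14% of 4624 genes. Its share was 14.0%, 10.7%, 18.5% and 11.2% in control and 5.82%, 8.77%, 10.6% and 5.12% in obesity libraries. The difference of the means, 13.6% ± 3.56 and 7.58% ± 2.57 (SD), was -6.01 points with an exact permutation p of 0.0286 (n = 4 per group, adjusted p 0.911). Over same-numbered pairs the exact sign-flip p was 0.125. Celf4 had the widest difference, from 57.8% ± 4.77 to 46.1% ± 9.78, or -11.7 points with an exact permutation p of 0.114 (n = 4 per group). Its obesity libraries 1, 3 and 4 stood at 37.0%, 42.4% and 45.3%, below all control libraries, and library 2 at 59.9% was among them. Celf2 differed by -9.40 points, from 27.9% ± 4.93 to 18.5% ± 9.05, and obesity library 2 at 28.3% was again within the control range. Without that library the groups did not overlap for 3 members, Rbfox1, Celf2 and Celf4, and for 9.54% of all genes, and the differences of the Celf genes were -12.6 and -16.3 points. Without control library 2 the count was 2, with Rbfox3 added (5.73% of all genes), and without obesity library 4 it was 2, with Elavl3 added (4.87% of all genes).

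Shares within 5 kb were lower on average in 9 of the 10 members, Elavl2 being the exception, and in 56.6% of all genes. In Nova2 the difference was only -0.08 points, and it ran from -2.81 to 1.44 points when 1 library was left out. With windows of 2 and 10 kb, 8 members were lower, beside 59.8% and 49.7% of all genes. The median difference was -5.16 points in the members and -0.92 points over all genes. Elavl3 held most of its reads there in both groups, at 85.2% ± 3.54 and 81.1% ± 1.85. In Rbfox3 the share went from 84.0% ± 7.0 to 76.6% ± 5.48, and each obesity library was below the control library of its number. In Elavl4 it went from 71.1% ± 7.40 to 62.2% ± 13.2, with obesity library 3 lowest at 42.7%. This difference of -8.88 points was 1.94 points with a window of 2 kb and ran from -11.9 to -2.38 points when 1 library was left out. Rbfox2 and Nova2 held 1.97% and 5.08% of their control reads there, so their shares rest on few reads. The mean over all genes was lower as well, running from 52.4% to 55.0% in control and from 49.3% to 53.0% in obesity libraries, where library 2 was highest. The part of this wider difference between libraries in the values of the members was not tested.

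**Figure D4:**
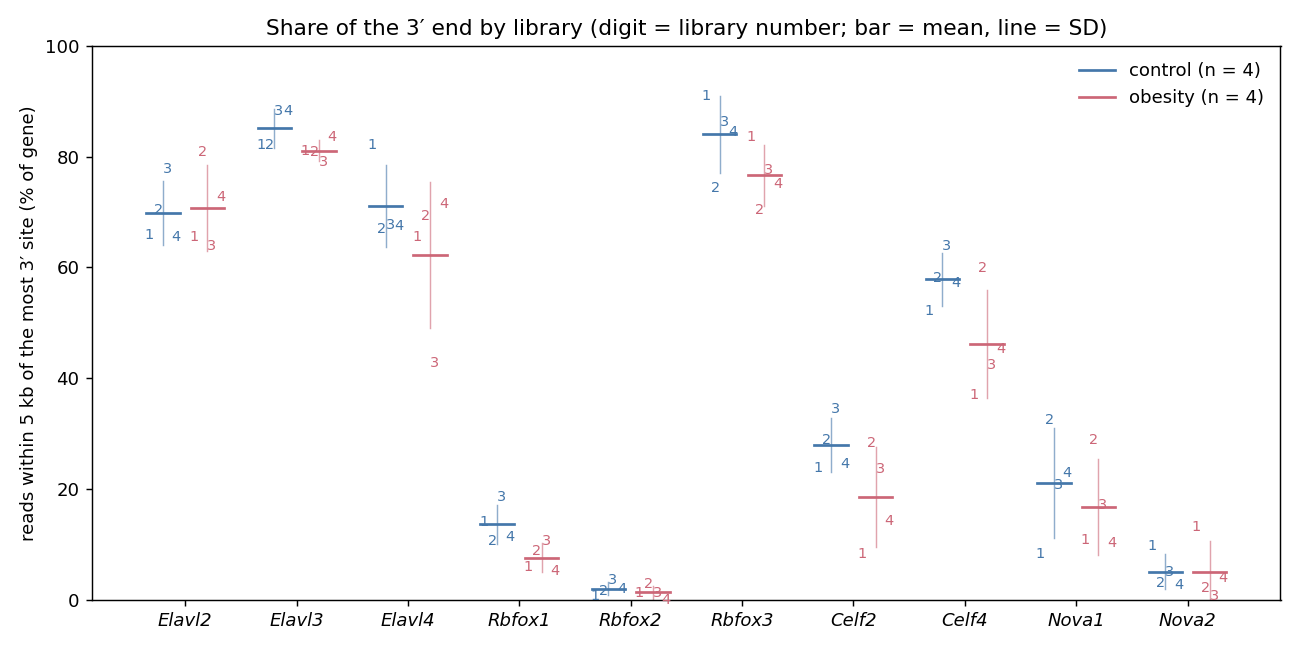
Percent of the reads of each gene that lay within 5 kb of its most 3′ site, by library, for control (blue) and obesity (red); digits give the library number, bars the mean and lines the SD (n = 4). Rbfox1 does not overlap between the groups, and in Celf2 and Celf4 only obesity library 2 reaches the control libraries.

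Counts within and beyond 5 kb were then fitted as separate features, the terminal and the upstream part of each gene, also added after the table was seen. Of the 20 parts of the members, 2 had an unadjusted p under 0.05 by edgeR, where 4.82% of 18132 parts did, and 0 had an adjusted p under 0.1. DESeq2 called 2 parts in the table and the blocked fit 47, none of them a member. The terminal part of Elavl3 had a log2 fold change of -0.58 (SE 0.20), at 595 ± 41.1 CPM in control and 398 ± 73.0 CPM in obesity libraries, and its upstream part one of -0.18 (SE 0.28). The upstream part of Rbfox1 had a log2 fold change of 0.54 (SE 0.19), at 1772 ± 232 and 2574 ± 479 CPM, while its terminal part had one of -0.42 (SE 0.23). With the block, the adjusted p of both was 0.142. With the upstream part of Rbfox3, 3 of the 20 parts did not overlap between the groups, beside 3.62% of all parts. It stood at 69.2 to 93.6 CPM in control and 94.6 to 158 CPM in obesity libraries, with a log2 fold change of 0.50 (SE 0.26).

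Terminal parts were below 0 in log2 fold change in 9 of the 10 members and in 57.3% of all genes. Upstream parts were above 0 in 8 members and in 68.1% of the 5877 genes that had an upstream part. Both held together in 7 of the 10 members and in 39.2% of the 5877 genes with both parts. Those 7 were Elavl4, Rbfox1, Rbfox2, Rbfox3, Celf2, Celf4 and Nova1. The median log2 fold change was -0.33 for terminal parts of the members beside -0.10 for all genes. It was 0.21 for upstream parts of the members beside 0.20 for all upstream parts. In Celf4 the values were -0.36 (SE 0.20) and 0.33 (SE 0.24), and in Celf2 -0.57 (SE 0.34) and 0.21 (SE 0.19), so gene totals near 0 held parts on either side of it. Elavl2 had both parts below 0 and Nova2 both above it.

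**Figure D5:**
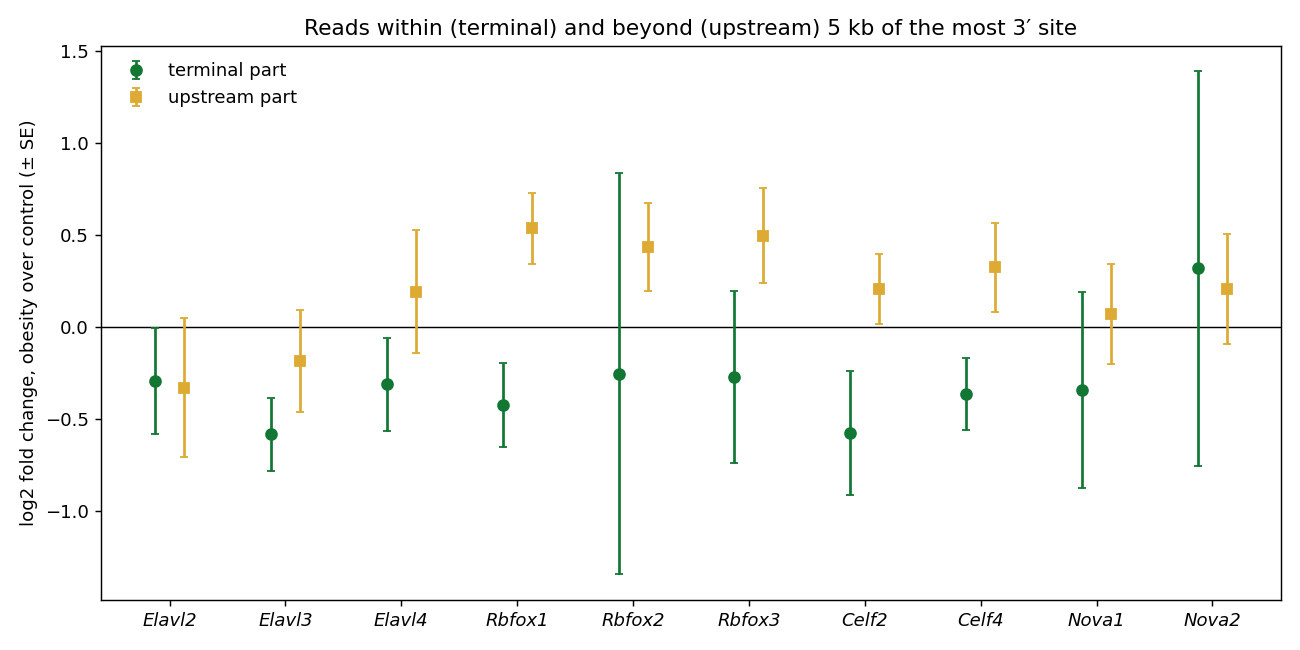
Log2 fold change (obesity over control, ± SE) of the terminal part (green circles, within 5 kb of the most 3′ site) and the upstream part (yellow squares) of each gene. Terminal parts lie below 0 except in Nova2 and upstream parts above 0 except in Elavl2 and Elavl3, with wide errors where the terminal part holds few reads.

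Whether sites of a gene moved unequally was also tested with the exon usage test of edgeR, taking sites as exons. Of the 10 members 0 had a Simes p under 0.05, beside 1.36% of 7996 genes, and 0 had an adjusted p under 0.1. With the library number as a block 1 member had, Rbfox1, at a p of 0.000576 and an adjusted p of 0.512, where 2.8% of all genes had such a p. A p above the threshold does not show that usage was equal, since most member sites had low counts and only 198 of the 491 passed a filter on low counts.

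The genes most like the leading member of each family were sought among 8302 genes with a mean of at least 10 CPM, by Pearson r of log2 CPM over the 8 libraries. The values describe these libraries, which share their grouping and scaling. For each member they were picked as the highest of 8302 values over only 8 libraries, and no test was run on them. Elavl3 was followed most closely by Rrp1, with an r of 0.990, and RGD1562140, with an r of 0.965. Rbfox1 was followed by Park2, the ubiquitin ligase parkin, with an r of 0.987 and by Dennd2a with an r of 0.978. Celf4 was followed by RGD1306954 with an r of 0.973 and Snx24 with an r of 0.968, and Nova1 by Ndufa6 and Mea1 with an r of 0.903 and 0.901. Park2 stood at 216, 264, 199 and 249 CPM in control and 385, 256, 318 and 457 CPM in obesity libraries, with obesity library 2 lowest of its group as in Rbfox1.

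Other regulators of neuronal RNA were read from the same gene fit. Of the listed genes 36 were in the table, and 0 were called at an adjusted p under 0.1 by edgeR, by DESeq2 or with the block, and 0 had an unadjusted p under 0.05 by edgeR. The fold change was above 0 in 24 and below 0 in 12, with a median log2 fold change of 0.11 beside 0.00 over all genes. The higher genes with the smallest p were Khdrbs2, a splicing regulator, at 0.38 (SE 0.21), Ptbp3 at 1.25 (SE 0.75) and Celf3, of the Celf family, at 0.40 (SE 0.26). The lower ones were Pum2, a translational repressor, at -0.54 (SE 0.28), Fxr1 at -0.76 (SE 0.69) and Syncrip at -0.33 (SE 0.35). Elavl1, the widely expressed member of the Elavl family, stood at 68.3 ± 12.9 CPM in control and 76.6 ± 30.4 CPM in obesity libraries (SD, n = 4), with a log2 fold change of 0.17 (SE 0.30).

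Markers of other cells were read beside these values. All 7 oligodendrocyte markers had a log2 fold change below 0, with a median of -0.18, and their sums ran from 17175 to 22643 CPM in control and from 13320.1 to 20978 CPM in obesity libraries. Of the 7 astrocyte markers 5 were below 0, with a median of -0.23 and sums of 1901 to 2660.2 CPM in control and 1501 to 2184 CPM in obesity libraries. The 8 neuronal markers had a median of -0.01, with 4 on either side of 0. At an unadjusted p under 0.05 by edgeR only Stmn2 of these, a microtubule regulator of growing neurites, passed, at -0.61 (SE 0.24). Of the 9 hypothalamic peptides 7 were below 0, with a median of -0.44, and Avp, Oxt and Sst were lower at that p. So were Aldoc of the astrocyte, Mal of the oligodendrocyte and Csf1r of the microglial markers, and Gh1 was higher. At that p 5.12% of all genes passed, and no marker passed the adjusted threshold. Of 7 microglial markers 4 were in the table, with a median of 0.00 and sums of 82.2 to 129 CPM in control and 34.6 to 109.6 CPM in obesity libraries. Of 4 endothelial markers 3 were, with a median of 0.14 and sums of 42.8 to 78.6 and 39.8 to 109.7 CPM. Their part in the values of the 10 genes was not tested.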

How the data were processed

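Raw read counts per polyadenylation site, deposited by the authors without normalization, were used. The submitters' processing notes name Rnor_6.0 and Bowtie2 2.2.3. How sites were clustered and assigned to genes is not given in the sources used here, and the paper linked to these libraries describes another exposure. The lowest site total was 30 reads, 1 line without a site (the total of control library 1) was left out, and 273 sites with a mark in place of a symbol were treated as having no gene. Of 73922 sites 65913 had a gene.

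Sites on the main strand were summed per gene. Sites, genes and parts of genes were fitted over all rows and all 8 libraries with edgeR 4.0.16 in R 4.3.3 (quasi-likelihood F test, robust, TMM, no filter), with Benjamini-Hochberg adjustment and a threshold of 0.1. Site usage was tested with diffSpliceDGE and shares with exact permutation over 70 arrangements, for genes with at least 20 reads in every library. Alternatives were DESeq2 1.42.0, its size factors, filterByExpr, the library number as a block, both strands, other windows and leaving out each library. Scripts were tested on simulated data.

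Libraries carry shared numbers 1 to 4. Deviations from the group means correlated at 0.268 to 0.382 between libraries of the same number and at -0.20 to -0.04 between others, so the numbers were taken to pair them, a choice made from the data. What a number stands for is not given in the labels.

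All 10 genes were named. Named sites were, per gene, the site with most reads, the most 3′ site and those with an unadjusted p under 0.05 and a mean of at least 5 CPM. The Elavl3 site on the opposite strand was named after its values were seen. Of the other RNA-binding genes, the 3 higher and 3 lower ones with the smallest p were named, and Elavl1 was added after its values were seen. Members and lists were chosen with earlier results of these data known. Reads carry no molecular identifiers, so precision covers spread between rats and counting only.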

Additional observations from a re-analysis of the deposited data

Results flagged for a closer look

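In 120 checks of groups of 4 libraries on the members' levels and shares, 6 had a library far from the other 3, where chance gives about 1 in 20 groups, or 6. The Rbfox3 total was 952 CPM in obesity library 1 and 343 to 419 in the others of its group. The Rbfox3 most 3′ site held 1.15 CPM and 0.401% of the gene in control library 2 and was at 0 in the other control libraries, which makes 2 of the 6. The share of Elavl4 within 5 kb was 82.2% in control library 1 and 66.9% to 67.7% in the others. The Celf4 site at 17689492 stood at 69.3 CPM in obesity library 2 and at 19.6 to 26.3 in the others, and the Rbfox1 site at 9741412 at 61.7 CPM in obesity library 4 and at 31.2 to 32.4 in the others.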

How the results depend on the processing

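The counts of members called at an adjusted p under 0.1 for genes, parts and usage stayed at 0 under every alternative run, and that for sites was 1 with DESeq2 and 0 otherwise. There were 18 member sites with an unadjusted p under 0.05, but 37 in the fit with the replicate block, and 16 to 33 when 1 library was left out, the 33 being without obesity library 2. Members without overlap in the most 3′ site share numbered 1, and 1 to 2 when 1 library was left out. With same-numbered libraries as pairs (replicate block), 2 members, Elavl3 and Rbfox1, had a lower share in 4 of 4 pairs, beside 17.3% of all genes with 1 sign in all pairs. For the share within 5 kb the number was 1, and 1 to 3 when 1 library was left out. At an adjusted p under 0.1 the replicate block changed no member call. At an unadjusted p under 0.05 by edgeR it added Rbfox2 among the gene totals, where 10.9% of all genes passed. For site usage it added Rbfox1, where 2.8% passed. Among parts it added the terminal parts of Rbfox1, Celf2 and Celf4 and the upstream parts of Rbfox2 and Rbfox3. The share of all parts with such a p under the block was not computed, so these additions cannot be set against a background. Under the alternatives, 36 of 804 fold changes of single genes, sites and parts and 24 of 200 differences of shares had another sign, 6 shares moved by more than the spread, and 1 site, the most 3′ one of Elavl3 with DESeq2, passed the threshold. None of the fold changes that changed sign had an unadjusted p under 0.05 by edgeR. Nova1 (log2 fold change -0.02) was at 0.00089 with DESeq2, 0.00115 with its size factors, 0.040 over both strands and 0.0018 after filterByExpr. The Nova2 site at 79866999 was at -0.21 and its terminal part at -0.14 with the block, and that part at -0.36 with a window of 10 kb. The upstream part of Elavl4 was at -0.17 with a window of 2 kb, the terminal part of Rbfox2 at 0.44 with one of 10 kb, and Fxr1 at 0.13 over both strands. Leaving out 1 library gave ranges across 0 for the gene totals of Rbfox3 (-0.60 to 0.29), Celf2 (-0.033 to 0.072), Celf4 (-0.15 to 0.039) and Nova1 (-0.12 to 0.12). It did so for the sites Celf2 75659121 (-1.23 to 1.12), Nova2 79866999 (-1.06 to 0.71), Rbfox2 118155488 (-0.85 to 0.087) and Rbfox3 107516184 (-0.83 to 0.13), for the terminal parts of Rbfox2 (-0.75 to 0.17), Rbfox3 (-0.81 to 0.24) and Nova2 (-1.04 to 0.86), and for the upstream parts of Elavl4 (-0.066 to 0.40) and Nova1 (-0.077 to 0.17). The cause of these turns was not tested.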
